A study of Mus musculus with 21 samples.

Results

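Saa3 encodes serum amyloid A3, an acute-phase protein of the mouse. It was followed here in cardiac macrophages and splenic monocytes as 1 gene of the 27179 gene IDs counted (gene ID 20210). It was picked for being nearly absent from naive R1 macrophages and high after treatment, so its CAWS and naive values are given as a description, without a test.

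Serum amyloid A proteins are small lipid-binding proteins whose genes are switched on in infection and tissue injury, mainly downstream of interleukin-1, interleukin-6 and tumour necrosis factor and of the transcription factors NF-kB, C/EBP and STAT3. In mice the liver releases Saa1 and Saa2 into the blood, where they travel on high-density lipoprotein, while Saa3 is made largely outside the liver, by macrophages and adipocytes among others. Formyl peptide receptors, Toll-like receptors and scavenger receptors have been proposed to bind these proteins.

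All animals were C57BL/6 mice. Each of the 7 groups had 3 libraries. Per the series design they came from 3 independent pools of mice per treatment and tissue, with each pool of hearts divided into 3 macrophage populations. The treated animals were given CAWS, a water-soluble extract of Candida albicans that brings on a vasculitis used as a model of Kawasaki disease, and the controls were naive. Hearts of both kinds gave the macrophage populations R1 and R2, both without Ccr2 and told apart by low MHC-II on R1 and high MHC-II on R2, and R3, which carried both Ccr2 and high MHC-II. Spleens of naive mice gave Ccr2-positive monocytes. Pooling means that a value is an average over mice, and neither the time after CAWS nor the age of the mice is stated in the sources used.

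Library totals lay between 12800136 and 23006155 counts. The macrophage genes Adgre1 and Csf1r were present in all 7 groups, and RNA of the sorted markers followed the gates. Mean Ccr2 was 3667 CPM (counts per 1e6 counts, on adjusted library sizes) in CAWS R3 and 2390 CPM in naive R3, against 231 CPM in CAWS R2, 29.3 CPM in naive R2, 80.5 CPM in CAWS R1 and 6.58 CPM in naive R1. Monocyte replicate 2 lay farthest from its group, at a root mean square distance of 0.404 on the log2 scale over genes whose mean log2 CPM was 4 or more, and the 18 cardiac libraries lay between 0.113 and 0.189 from theirs. Naive R3 replicate 2 carried fibroblast RNA, with 223 CPM summed over 9 fibroblast markers, and its Saa3 count was 0.

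Saa3 lies on the minus strand of mouse chromosome 7, from 46711998 to 46719615 in RefSeq (GRCm38.p6). GENCODE M21 gives it 4 exons of 54, 95, 139 and 267 bases between 46711998 and 46715700, and no other GENCODE gene overlaps them. The 226 bases upstream of that GENCODE start are shown because words of known regulators were searched there and set beside those of Saa1 and Saa2. They lie inside the RefSeq span of Saa3, which runs on to 46719615. The sequence is RefSeq's (GRCm38.p6, chr7:46715701-46715926, minus strand), 5′ to 3′, and capitals mark a C/EBP-like word and, further downstream, a TATA-like stretch.
Saa3 promoter: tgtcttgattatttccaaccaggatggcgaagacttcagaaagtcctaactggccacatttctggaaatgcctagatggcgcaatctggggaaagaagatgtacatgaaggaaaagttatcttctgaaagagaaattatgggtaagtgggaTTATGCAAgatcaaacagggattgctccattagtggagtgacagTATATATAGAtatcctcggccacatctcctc
The C/EBP-like word was searched as TTGCNNAA on both strands. It occurred once for Saa3, 75 bases before the GENCODE start and on the opposite strand, once each for Saa1 and Saa2 and at 2 places for Saa4, and 8.95% of 32851 mouse promoter windows held it, each being the first 226 bases of an entry in RefSeq's promoter table, which leaves out the bases next to the RefSeq start. The stretches of 40 bases around it are shown for comparison, at chr7:46715752-46715791 (minus strand), chr7:46743139-46743178 (minus strand) and chr7:46751634-46751673 (plus strand), with the word in capitals. The Saa1 stretch lies inside the RefSeq span of Saa1 (46740497 to 46743181).
Saa3 stretch: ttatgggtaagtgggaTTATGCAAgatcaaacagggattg
Saa1 stretch: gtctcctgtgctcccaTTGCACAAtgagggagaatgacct
Saa2 stretch: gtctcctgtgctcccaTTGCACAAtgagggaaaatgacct
A TATA-like word, searched as TATANA on both strands, had 3 overlapping matches for Saa3, from 31 bases before the GENCODE start. It had 0 matches for Saa1, Saa2 and Saa4, and 20.8% of all windows held it. The Saa3 window ended at the GENCODE start, while other windows stopped short of their RefSeq start and could miss a TATA-like word there. These numbers are therefore not like for like. An NF-kB-like word, GGGNNNNNCC on both strands, was found 0 times for Saa3 and once each for Saa1, Saa2 and Saa4, against 42.1% of all windows. A STAT-like word, TTCNNNGAA on both strands, was found in none of the 4 windows and in 6.4% of all. These matches describe letters only.

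Saa3 RNA was highest in R1 macrophages of CAWS mice. It measured 38.8, 60.3 and 69.9 CPM in the 3 CAWS R1 libraries, against 0.0495, 0 and 0.467 CPM in naive R1, which were 738, 1039 and 1376 counts against 1, 0 and 7. Every CAWS R1 library stood far above every naive R1 library. The mean was 56.3 ± 15.9 CPM in CAWS R1 and 0.172 ± 0.257 CPM in naive R1 (SD, n = 3 each), a ratio of 327. The ratio of the summed counts was 355, with a 95% counting interval of 180 to 823, and the fitted log2 fold change was 8.43 ± 0.75 (SE, worked back from edgeR's F statistic). Without naive R1 replicate 3, which held 7 of the 8 counts, the fitted value was 10.6.

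R2 macrophages, the MHC-II-high cells without Ccr2, held less Saa3. It measured 9.72, 13.4 and 13.4 CPM in CAWS R2, against 0.136, 0 and 0 CPM in naive R2. Naive R2 as a group held only 3 counts, all in replicate 1. The mean was 12.2 ± 2.12 CPM in CAWS R2 and 0.0452 ± 0.0783 CPM in naive R2 (SD, n = 3 each). Since 3 counts carry the ratio, it is loosely fixed: 257 from the summed counts, with a 95% counting interval of 87.7 to 1250. The fitted log2 fold change was 7.79 ± 1.04 (SE), and 10.7 without naive R2 replicate 1.

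In R3, the Ccr2-positive macrophages, Saa3 varied 7.92-fold among the CAWS libraries. It measured 1.72, 3.89 and 13.6 CPM in CAWS R3, against 0.232, 0 and 1.26 CPM in naive R3. The groups did not overlap, but replicate 3 carried most of the counts in both. The mean was 6.41 ± 6.34 CPM in CAWS R3 and 0.496 ± 0.669 CPM in naive R3 (SD, n = 3 each), and the fitted log2 fold change was 3.82 ± 0.85 (SE). It was 2.59 without CAWS R3 replicate 3 and 5.76 without naive R3 replicate 3. Genes were ranked from the largest rise by fitted log2 fold change, so falls did not count. Among the 13275 genes with enough counts to be tested, Saa3 had rank 5 in R1, rank 1 in R2 and rank 30 in R3. Of those genes, 8.94%, 10.3% and 15% passed an adjusted p of 0.05 in R1, R2 and R3, a figure given for scale only, since Saa3 was chosen by such a contrast.

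Naive splenic monocytes also held Saa3, at 1.54, 2.39 and 6.67 CPM, with replicate 3 again the highest. Their mean of 3.53 ± 2.75 CPM (SD, n = 3) lay above each naive macrophage group and below the CAWS groups, although single CAWS R3 libraries fell within the monocyte range. Replicate 3 was the highest library in 5 of the 7 groups, the exceptions being CAWS R2 and naive R2. Equal numbers were read as 1 pool among the macrophage libraries of a treatment, not across treatments and not with monocytes.

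Per length of the transcript, as CPM per kilobase (RPKM), Saa3 averaged 106 in CAWS R1, above 95.4% of the genes tested. It averaged 22.9 RPKM in CAWS R2, above 77.5% of genes, and 12.1 RPKM in CAWS R3, above 63.2%. In monocytes it was near the middle, at 6.66 RPKM and above 49.8% of genes. Naive R1, R2 and R3 were near the bottom, at 0.325, 0.0851 and 0.935 RPKM, above 11%, 3.8% and 17.9% of genes. In bulk RNA, fewer cells that express the gene and less of it per cell cannot be told apart.

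**Figure D1:**
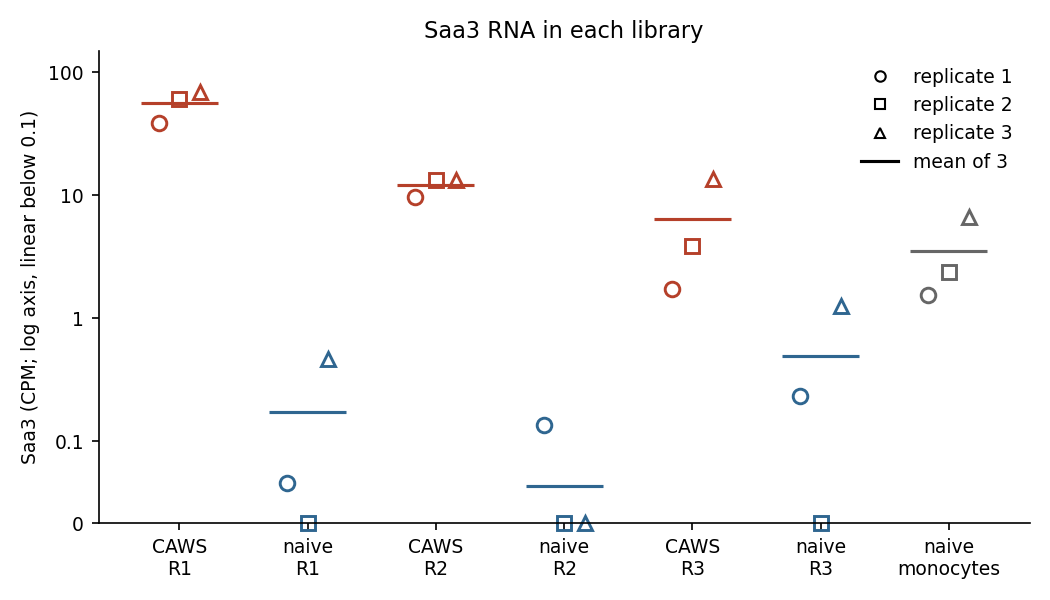
Saa3 in each of the 21 libraries, in CPM on an axis that is logarithmic above 0.1 and linear below it; symbols are replicates and bars the mean of 3. CAWS R1 libraries lie between 38.8 and 69.9 CPM, CAWS R2 between 9.72 and 13.4 and CAWS R3 between 1.72 and 13.6, while no naive macrophage library exceeds 1.26.

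Whether the populations of CAWS hearts differed in Saa3 was tested with edgeR's quasi-likelihood test, with Benjamini-Hochberg adjustment over all 13275 genes. These contrasts were not those by which Saa3 was picked, but they use the same CAWS libraries. High CAWS values favoured the pick, so the p-values are not independent of it and may be too small. CAWS R2 lay below CAWS R1 with no overlap, by a log2 fold change of -2.20 ± 0.39 (SE, adjusted p = 0.00109), where 3.77% of genes passed. DESeq2 gave the same size with a wider error and did not pass it (-2.21, adjusted p = 0.369).

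CAWS R3 lay below CAWS R1, again with no overlap, by -3.09 ± 0.43 on the log2 scale (edgeR adjusted p = 6.36e-06). In that contrast 29.4% of genes passed. Without CAWS R3 replicate 3 the difference was -4.31.

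CAWS R3 and CAWS R2 overlapped, because CAWS R3 replicate 3 (13.6 CPM) reached the level of the 2 higher CAWS R2 libraries while the other two lay well below. The log2 difference was -0.88 ± 0.47 (edgeR adjusted p = 0.233), with an approximate 95% interval from -1.90 to 0.13, and 15.3% of genes passed. Without CAWS R3 replicate 3 it passed (-2.11, adjusted p = 0.00635), as it did by limma's voom method (-1.63, adjusted p = 0.0174). In edgeR's test CAWS R1 passed as above both other CAWS populations, with p-values that may be too small given the pick. Against CAWS R2 this did not hold with DESeq2 (adjusted p = 0.369). The order of CAWS R2 and CAWS R3 was not settled.

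Among naive macrophages Saa3 rested on few counts. Low naive values entered the rise with CAWS for which Saa3 was picked, so these p-values are not independent of the pick. Naive R3, with 4, 0 and 19 counts, did not pass against naive R2, with 3, 0 and 0 (log2 difference 3.09 ± 2.26, edgeR adjusted p = 0.432), where 12.4% of genes passed. Naive R2 lay below the monocytes with no overlap (-6.05 ± 1.36, edgeR adjusted p = 0.000477), where 63.6% of genes passed, and at -8.95 without naive R2 replicate 1. Naive R3 lay below the monocytes as well (-2.96 ± 0.94, edgeR adjusted p = 0.00913), where 58.9% of genes passed. That call ended without monocyte replicate 3 (-2.10, adjusted p = 0.113). It ended by limma's voom method too (-3.58, adjusted p = 0.093), and the difference was -4.90 without naive R3 replicate 3.

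The CAWS response itself was read between populations as a description. The fitted log2 fold change in R3 was 4.61 below that in R1 (SE 1.93) and 3.97 below that in R2 (SE 2.27). That in R2 was 0.64 below that in R1 (SE 4.42). These SEs were worked back from the F statistic and are rough with naive groups so near 0. The value of 4.42 is out of scale with the SEs of the effects in R1 and R2 (0.75 and 1.04) and is not read as an error. These differences rest on naive groups of 8, 3 and 23 counts in all for R1, R2 and R3. Over all genes, the CAWS effect differed from R1 in R3 for 2.26% and from R2 in R3 for 2.33% of genes.

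RNA of other cell types was set beside these values. Of 9 classical monocyte markers, 4, 7 and 2 passed as higher in CAWS than in naive R1, R2 and R3, where 6.07%, 6.79% and 6.7% of all genes were higher. Their summed level was 67.3 to 259 CPM in CAWS R1 against 15.2 to 30.9 in naive R1, and 256 to 336 in CAWS R2 against 24.8 to 42.9 in naive R2. It was far higher in CAWS R3, at 3580 to 4260 CPM, and in naive R3, at 2090 to 2670 CPM, and was 8890 to 13000 CPM in monocytes. Most of the sum in R3 was Ccr2, by which R3 was sorted from R1 and R2 (3470 of 3580 CPM in CAWS R3 replicate 1). The place of R3 in the order of these sums was therefore largely set by the gate. Ly6c2, another of the markers, measured 6.72, 6.74 and 7.28 CPM in CAWS R3 against 741 to 1030 CPM in monocytes. Within CAWS R1, replicate 3 had the most Saa3 (69.9 CPM) and the lowest monocyte marker sum (67.3 CPM), while replicate 2 had 60.3 CPM of Saa3 and the highest sum (259 CPM). The part of monocyte RNA in the Saa3 differences was not tested.

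Of 10 markers of conventional dendritic cells, 4 passed as higher in CAWS R1 than in naive R1 (Dpp4, Flt3, Clec9a and Cd209a), 6 in R2 and 0 in R3. Their summed level overlapped in R1, at 210 to 271 CPM in CAWS R1 against 241 to 313 CPM in naive R1, and did not in R2, at 272 to 562 CPM in CAWS R2 against 165 to 219 CPM in naive R2. Between CAWS populations, where Saa3 was lower in R2 and R3 than in R1, 8 of these 10 were higher in CAWS R2 than in CAWS R1 and 5 in CAWS R3 than in CAWS R1. Of all genes, 2.46% were higher and 1.31% lower in CAWS R2 than in CAWS R1, and 13.1% were higher and 16.3% lower in CAWS R3 than in CAWS R1. All 4 tested of 6 B cell markers were higher in CAWS R2 than in CAWS R1, and 1 was in CAWS R3. Their sum was 31.7 to 51.1 CPM in CAWS R2 and 37.9 to 43.2 CPM in CAWS R3, against 13.8 to 18.9 CPM in CAWS R1. The part of dendritic and B cell RNA was not tested.

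All 3 of the T and NK cell markers with enough counts (of 8) passed as higher in CAWS R1, where the 8 summed to 5.47 to 18.8 CPM against 0.31 to 2.0 CPM in naive R1, and their part was not tested. Of these 3, Gzma was lower in CAWS R2 than in CAWS R1, and Gzma and Nkg7 were lower in CAWS R3 than in CAWS R1, as Saa3 was. Of 12 neutrophil markers, 9 were tested, and Ly6g and Camp were at 0 in all 18 cardiac libraries. Csf3r was higher in CAWS than in naive R1 and R3, and Mmp9 was lower in R3. Of all genes, 6.07% rose in R1, and 6.7% rose and 8.29% fell in R3. In CAWS R3 against CAWS R1, Retnlg and Mmp9 were lower, as Saa3 was, and Csf3r was higher. The 12 summed to 221 to 346 CPM in CAWS R1 and 229 to 350 CPM in naive R1. The sum was 614 to 780 CPM in monocytes, where replicate 3, the highest for Saa3, was also the highest, and its S100a8 and Lcn2 stood at 23.3 and 16.4 CPM against 2.89 and 1.86 in replicate 1. Naive R3 replicate 3 had the highest neutrophil sum of the cardiac libraries, 453 CPM, with S100a8 at 0. The part of neutrophil RNA in the Saa3 values, in replicate 3 or elsewhere, was not tested.

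RNA of cells outside the immune system was read as well. Adipocyte markers summed to at most 0.813 CPM and mesothelial markers to at most 1.37 CPM in any library. Of 6 hepatocyte markers, Alb, Ttr, Apoa1 and Serpina1a were at 0 in all libraries, and the sum came from Trf, which macrophages express too. Endothelial markers summed to 24.7 to 38.8 CPM in CAWS R1 against 10.1 to 14.3 CPM in naive R1, and cardiomyocyte markers to 94.7 to 116 CPM in CAWS R1 against 54.0 to 76.6 CPM in naive R1. Smooth muscle and pericyte markers summed to 19.9 to 26.9 CPM in CAWS R1 against 7.28 to 17.5 CPM in naive R1. Fibroblast markers overlapped, at 25.3 to 29.2 CPM in CAWS R1 against 21.2 to 33.6 CPM in naive R1. Their part was not tested.

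Saa3 was almost the only serum amyloid A gene read in these cells. Over all 21 libraries Saa1 had 2 counts, Saa2 had 3 and Saa4 had 0, against 4261 for Saa3. Both Saa1 counts and 2 of the Saa2 counts fell in CAWS R1. Saa3 transcript 201 shared 75.7% of aligned bases with Saa1, with a longest identical run of 58 bases, and 75.3% with Saa2, with a run of 41 bases, and read length is not given in the sources used, so how well reads were told apart between these genes is not known. Saa1 and Saa2 shared 94.4%, and their few counts could be split between them.

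The 5 genes to each side of Saa3 were read for changes at the locus. Of all genes, 8.94%, 10.3% and 15% passed in R1, R2 and R3 with edgeR. Of the 10 neighbours, 4 had enough counts to be tested, too few to set against those shares. Of these 4, 0 passed in R1, R2 or R3 with edgeR, DESeq2 or limma voom. At an unadjusted p of 0.05 the only one was Gtf2h1 in R1, a subunit of the transcription factor TFIIH, with a log2 fold change of 0.27 and an adjusted p of 0.189 (edgeR). Saal1, which lies next to Saa3, averaged 12.2 CPM in CAWS R1 and 13.7 CPM in naive R1 (adjusted p = 0.71 with edgeR).

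Other acute-phase genes rose with CAWS. Of 24 acute-phase genes listed beside Saa3, 12 could be tested. In R1, 5 rose and 0 fell, with a list median log2 fold change of 1.98 against 0.03 over all genes, while 6.07% of all genes rose and 2.87% fell. In R2, 5 rose and 0 fell (median 1.67 against 0.02, with 6.79% of all genes rising and 3.5% falling), and in R3 4 rose and 1 fell (median 1.01 against -0.06, with 6.7% of all genes rising and 8.29% falling). The genes that rose in all 3 were Cfb, C3, Il1rn and Serpina3g, and none of these 4 had its highest CAWS mean in R1, where that of Saa3 was.

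Cfb encodes complement factor B, a protease component of the alternative pathway. It measured 71.3, 82.9 and 100.4 CPM in CAWS R1 against 19.3, 13.5 and 25.9 CPM in naive R1, and 89.5, 170 and 174 CPM in CAWS R3 against 16.2, 13.6 and 19.2 CPM in naive R3. The CAWS and naive libraries were well apart in both. Its log2 fold change was 2.12 ± 0.29 in R1, 2.64 ± 0.31 in R2 and 3.15 ± 0.30 in R3 (edgeR adjusted p = 0.000153, 1.46e-05 and 9.21e-07). Where Saa3 was lower in CAWS R3 than in CAWS R1, Cfb was higher (0.77 ± 0.26, edgeR adjusted p = 0.0343), a call that ended with 4 of 6 libraries left out in turn.

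C3, the central component of complement, averaged 106 ± 16.6 CPM in CAWS R1 against 25.8 ± 5.72 in naive R1, 126 ± 27.2 in CAWS R2 against 27.7 ± 12.9 in naive R2, and 165 ± 25.1 in CAWS R3 against 43.6 ± 16.9 in naive R3 (SD, n = 3 each). It rose by 2.03, 2.18 and 1.92 on the log2 scale (edgeR adjusted p = 0.000694, 0.000199 and 0.000459). Among the CAWS populations C3 passed in no contrast with CAWS R1 or CAWS R2.

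Il1rn encodes the interleukin-1 receptor antagonist. It averaged 24.3 ± 4.43 CPM in CAWS R1 against 5.6 ± 1.22 in naive R1, 50.7 ± 9.58 in CAWS R2 against 7.42 ± 1.17 in naive R2, and 35.5 ± 5.58 in CAWS R3 against 15 ± 1.67 in naive R3 (SD, n = 3 each). The groups were apart in each, with log2 fold changes of 2.13 ± 0.20, 2.77 ± 0.18 and 1.25 ± 0.18. It was higher in CAWS R2 than in CAWS R1 (1.06 ± 0.16, edgeR adjusted p = 0.000337), where Saa3 was lower.

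Serpina3g, an intracellular protease inhibitor of leukocytes, had 0 counts in all naive R1 libraries and 1.53, 5.92 and 1.57 CPM in CAWS R1. It measured 21.5, 20.7 and 24.5 CPM in CAWS R3 against 1.04, 3.66 and 0.662 CPM in naive R3. CAWS R3 lay above CAWS R1 by 2.93 ± 0.38 on the log2 scale (edgeR adjusted p = 8.09e-06) in every library, the reverse of Saa3.

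The other gene to rise in R1 and R2 was Hp, which encodes the haemoglobin scavenger haptoglobin. It is also 1 of the monocyte markers, at 805 to 1012 CPM in monocytes, and measured 5.63, 23.5 and 4.21 CPM in CAWS R1. The high library was replicate 2, the one with the most monocyte marker RNA. Hp averaged 11.1 ± 10.8 CPM in CAWS R1, 4.91 ± 0.56 CPM in CAWS R2 and 4.29 ± 0.19 CPM in CAWS R3 (SD, n = 3 each), the same order of means as Saa3, and it passed in no contrast between them (edgeR adjusted p of at least 0.0642). Its call in R1 ended with limma voom and with only the groups compared (highest adjusted p = 0.232), and in R2 without naive R2 replicate 2 (adjusted p = 0.0506). Cp, the copper-carrying ferroxidase ceruloplasmin, fell in R3, to 28.9 ± 3.74 CPM in CAWS R3 against 69.2 ± 32.3 in naive R3 (-1.25 ± 0.21, edgeR adjusted p = 0.000329), a call that narrowly ended with only the groups compared (adjusted p = 0.0555). In R1 and R2 it did not pass (adjusted p = 0.434 and 0.376).

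Levels were also compared per length, as mean RPKM within CAWS R1. Saa3 was at 106 RPKM, above Cfb at 30.9, C3 at 20.6, Il1rn at 9.03, Hp at 8.27 and Serpina3g at 1.54 RPKM, and above Cp at 52.1 RPKM. In CAWS R3 it was at 12.1 RPKM, below Cfb at 52.6 and C3 at 32.1 RPKM. In monocytes it was at 6.66 RPKM, against 674 for Hp and 303 for C3.

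**Figure D2:**
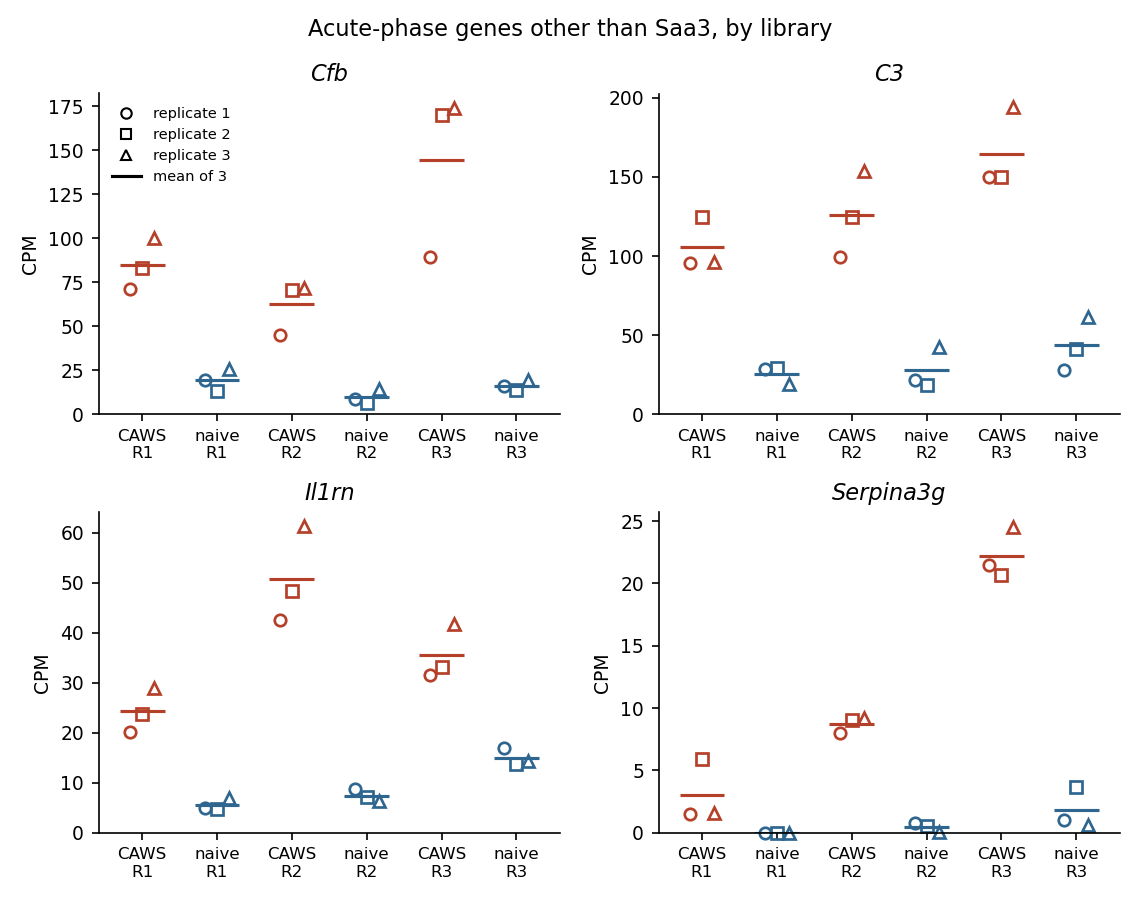
CPM of 4 acute-phase genes in the 18 cardiac libraries, on linear axes from 0; symbols are replicates and bars the mean of 3. The CAWS and naive libraries are apart for each gene and population, with Cfb and Serpina3g highest in CAWS R3 (means 145 and 22.2 CPM) and Il1rn highest in CAWS R2 (50.7 CPM).

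None of the tested cytokines that induce acute-phase genes passed with CAWS in the cells themselves. Of all genes, 8.94%, 10.3% and 15% passed in R1, R2 and R3 with edgeR. Of 12 cytokines on the list 7 were tested, too few to set against those shares, and 0 passed in R1, R2 or R3 with edgeR. At an unadjusted p of 0.05 there were 0 in R1 and R3 and 2 in R2, Tnf and Il1a. DESeq2 called 0 in each, and limma voom called Tnf in R2 and 0 in R1 and R3.

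Il1b, which encodes interleukin-1 beta, measured 22.6, 31.8 and 23.6 CPM in CAWS R1 against 40, 14.4 and 22.8 CPM in naive R1, so that the groups overlapped. In CAWS R2 it was 80.3, 71.1 and 87.6 CPM against 164, 80.1 and 131 CPM in naive R2 (log2 difference -0.65 ± 0.42, edgeR adjusted p = 0.383). Tnf, which encodes tumour necrosis factor, averaged 8.24 ± 0.72 CPM in CAWS R2 against 4.99 ± 1.12 in naive R2 (0.72 ± 0.25, edgeR adjusted p = 0.0731). Il6 stayed under the filter, at no more than 0.993 CPM in any cardiac library. Among CAWS populations, R1 had the most Saa3 but the lowest means of Il1b and Tnf.

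Of 14 receptors for such cytokines, 13 were tested. In R1, 0 rose and 2 fell, in R2 1 rose and 1 fell, and in R3 0 rose and 3 fell, with list medians of 0.16, -0.06 and -0.25. Of all genes 8.94%, 10.3% and 15% passed in R1, R2 and R3. Limma voom called more of the 13, with 3, 8 and 6. The gene that rose in R2 was Il17ra, a subunit of the interleukin-17 receptor (0.49 ± 0.16, edgeR adjusted p = 0.0475), a call that ended with each of the 6 libraries left out in turn (highest adjusted p = 0.188). Lifr, the receptor subunit for leukaemia inhibitory factor, fell in all 3 populations, to 266 ± 19.2 CPM in CAWS R1 against 360 ± 3.01 in naive R1 (-0.44 ± 0.09, edgeR adjusted p = 0.00247). Il6st, the signalling subunit gp130 shared by interleukin-6 receptors, was at 120 ± 4.75 CPM in CAWS R1 against 168 ± 4.95 CPM in naive R1 (-0.48 ± 0.11, edgeR adjusted p = 0.00879).

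Of 17 pattern receptors and adaptors, all tested, 3 rose and 1 fell in R1, 4 rose and 1 fell in R2, and 3 rose and 1 fell in R3. Of all genes, 6.07% rose and 2.87% fell in R1, 6.79% and 3.5% in R2, and 6.7% and 8.29% in R3. Clec7a, which encodes the beta-glucan receptor dectin-1, passed in none (edgeR adjusted p = 0.0713, 0.916 and 0.118), with 456 ± 52.7 CPM in CAWS R1 against 356 ± 13.9 CPM in naive R1. Clec4e encodes Mincle, a lectin for fungal and mycobacterial glycolipids. It measured 15.2, 22.3 and 10.4 CPM in CAWS R1 against 2.62, 1.92 and 1.54 CPM in naive R1, and 19.6, 16.5 and 17.5 CPM in CAWS R2 against 0.904, 1.36 and 0.573 CPM in naive R2. The groups were apart, and its log2 fold change was 2.93 ± 0.28 in R1, 4.27 ± 0.31 in R2 and 1.86 ± 0.27 in R3 (edgeR adjusted p = 6.21e-07, 3.7e-09 and 4.62e-05). Among CAWS populations Clec4e passed in no contrast, at means of 16, 17.9 and 13.1 CPM in R1, R2 and R3.

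Clec4d, the partner lectin of Mincle, rose by 1.32 ± 0.27 in R1, 2.64 ± 0.32 in R2 and 1.3 ± 0.37 in R3, the last lost with 4 of 6 libraries left out in turn (highest adjusted p = 0.0843). Like Saa3, Clec4d was lower in CAWS R3 than in CAWS R1 (-1.79 ± 0.29, edgeR adjusted p = 6.81e-05). Clec4n, which encodes the mannan receptor dectin-2, averaged 227 ± 7.57 CPM in CAWS R2 against 142 ± 11.1 in naive R2, and 144 ± 11.9 CPM in CAWS R3 against 65.1 ± 8.66 in naive R3 (edgeR adjusted p = 0.00325 and 1.55e-05). In R1 its 202 ± 26.6 CPM in CAWS against 159 ± 10.4 in naive cells did not pass (adjusted p = 0.146). Tlr4, the endotoxin receptor, fell in all 3 populations by 0.55, 0.63 and 0.53 on the log2 scale (edgeR adjusted p = 0.0121, 0.00371 and 0.0122), and in R3 the call was lost without CAWS R3 replicate 1 (adjusted p = 0.133).

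Of 20 transcription factors and feedback genes of the acute phase, all tested, 0 passed in R1 with edgeR, DESeq2 or limma voom. There 8.94% of all genes passed with edgeR, and 3 of the 20 had an unadjusted p under 0.05. In R2, 2 rose and 1 fell, and in R3, 0 rose and 1 fell, beside 10.3% of all genes passing in R2 and 15% in R3. The gene that fell in both was Cebpa, a C/EBP factor of myeloid cells. It averaged 475 ± 5.58 CPM in CAWS R2 against 593 ± 46.8 CPM in naive R2 (-0.32 ± 0.10, edgeR adjusted p = 0.0344), a call that ended with 5 of 6 libraries left out in turn, and 462 ± 13.1 CPM in CAWS R3 against 607 ± 51.5 CPM in naive R3 (-0.40 ± 0.10, edgeR adjusted p = 0.00726). Cebpb, a C/EBP factor of inflamed macrophages, measured 126, 173 and 132 CPM in CAWS R1 against 185, 113 and 159 CPM in naive R1, and 712 to 2130 CPM in monocytes. Cebpd averaged 92.2 ± 16.6 CPM in CAWS R1 against 116 ± 25.4 CPM in naive R1 (edgeR adjusted p = 0.277). Nfkb1 and Socs3 rose in R2 by 0.44 and 0.57 on the log2 scale (edgeR adjusted p = 0.00992 and 0.0227), and both calls ended when single libraries were left out, 2 of 6 for Nfkb1 and 5 of 6 for Socs3. RNA level does not measure the activity of these factors.

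Of 10 proposed receptors of serum amyloid A proteins, 9 were tested. In R1, 3 rose and 1 fell, and in both R2 and R3 3 rose and 2 fell. The shares of all genes rising and falling were 6.07% and 2.87% in R1, 6.79% and 3.5% in R2, and 6.7% and 8.29% in R3. Fpr2, a formyl peptide receptor, measured 28.3, 30.5 and 23.2 CPM in CAWS R1 against 9.25, 12.4 and 8.75 CPM in naive R1, and 32.7, 38.5 and 29.7 CPM in CAWS R3 against 7.53, 7.61 and 9.07 CPM in naive R3. It rose by 1.43 ± 0.18, 1.19 ± 0.17 and 2.06 ± 0.18 in R1, R2 and R3 (edgeR adjusted p = 2.42e-05, 6.72e-05 and 1.18e-07). Its relative Fpr1 rose by 1.33 ± 0.20, 2.27 ± 0.23 and 2.49 ± 0.24. Neither gene passed between CAWS populations.

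Scarb1, the scavenger receptor for high-density lipoprotein, rose in all 3 by 0.45, 0.37 and 0.85, and the calls in R1 and R2 each ended with 5 of 6 libraries left out in turn. Cd36, a scavenger receptor and fatty acid transporter, fell in R3, to 240 ± 25.7 CPM in CAWS R3 against 851 ± 177 in naive R3 (-1.83 ± 0.13, edgeR adjusted p = 2.57e-09). In R1 it averaged 1085 ± 73.4 CPM in CAWS against 1256 ± 127 in naive cells and did not pass (adjusted p = 0.311).

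**Figure D3:**
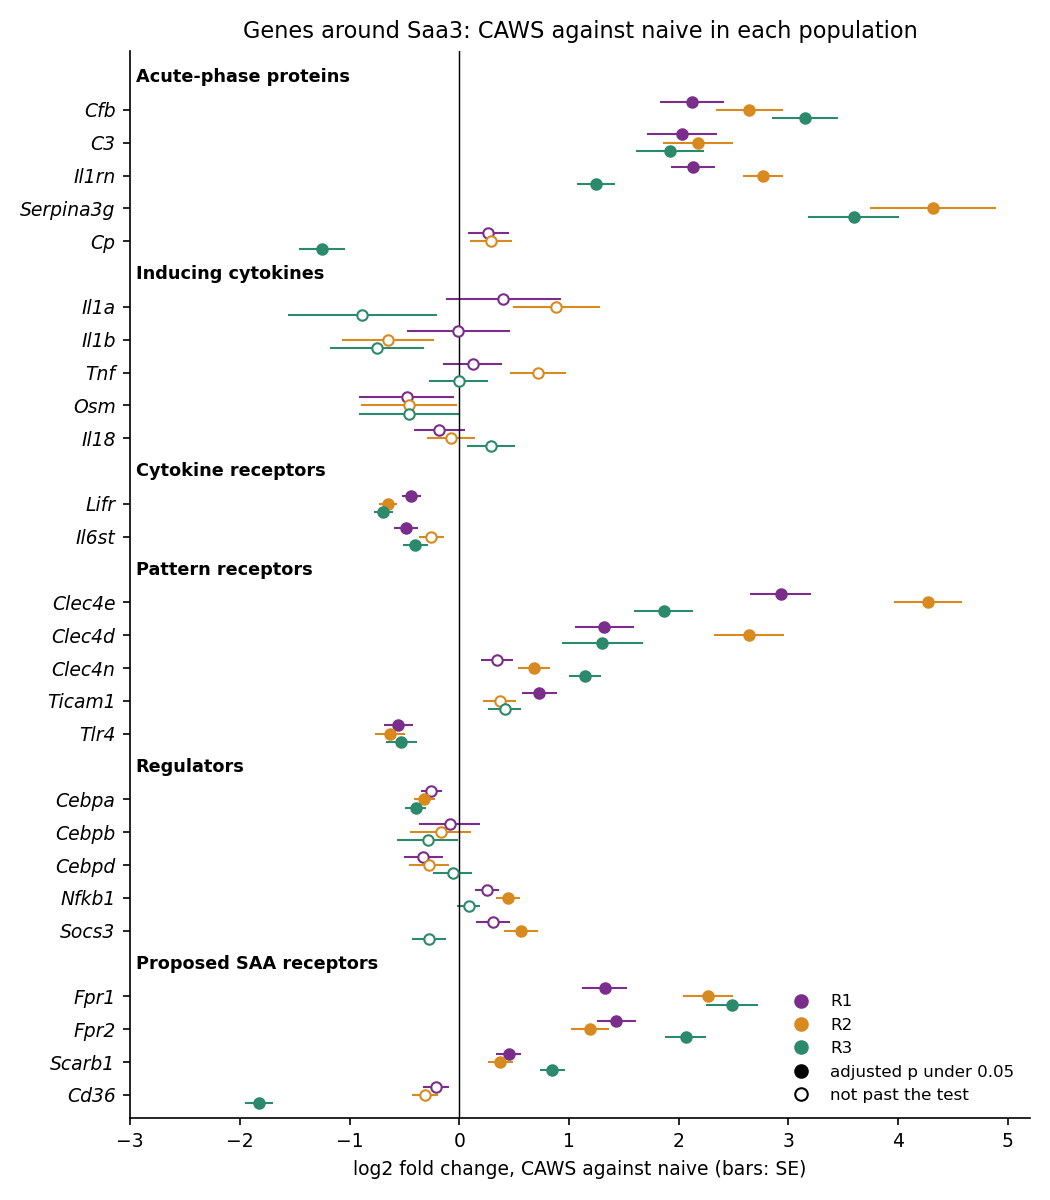
Log2 fold changes, CAWS against naive, with SE bars, for genes of 6 lists in R1, R2 and R3; filled points passed an adjusted p of 0.05 in edgeR's test. Cfb, C3, Il1rn, Clec4e, Fpr1 and Fpr2 lie above 1 in all 3 populations, no cytokine has a filled point, and Serpina3g in R1 is left out because naive R1 held 0 counts.

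Genes of high-density lipoprotein and lipid handling were read because serum amyloid A proteins bind that lipoprotein. Of 10, 7 were tested, and 3 rose and 1 fell in R1, while 3 rose and 0 fell in both R2 and R3, beside 8.94%, 10.3% and 15% of all genes passing in R1, R2 and R3. In R1 the rise of Pltp, phospholipid transfer protein, ended with each of the 6 libraries left out in turn and under 3 other settings (highest adjusted p = 0.241). The fall there of Apoe, apolipoprotein E, ended with 5 of the 6 libraries left out and under 1 other setting (highest adjusted p = 0.151). Abcg1, a cholesterol exporter, averaged 90.3 ± 13.6 CPM in CAWS R1 against 49.2 ± 3.84 in naive R1 (0.88 ± 0.16, edgeR adjusted p = 0.00107) and 122 ± 25.6 CPM in CAWS R2 against 58.9 ± 5.66 in naive R2 (1.05 ± 0.16, adjusted p = 9.19e-05). Lpl, lipoprotein lipase, averaged 635 ± 144 CPM in CAWS R1 against 322 ± 38.7 in naive R1 (0.98 ± 0.19, edgeR adjusted p = 0.00293).

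Of 15 genes that serum amyloid A proteins have been reported to induce in leukocytes, 12 were tested. In R1, 2 rose and 1 fell, in R2 1 rose and 0 fell, and in R3 0 rose and 1 fell, with 8.94%, 10.3% and 15% of all genes passing. The chemokine gene Ccl3 averaged 18.7 ± 2.37 CPM in CAWS R1 against 6.68 ± 2.24 in naive R1 (1.48 ± 0.37, edgeR adjusted p = 0.0161), a call that ended without 2 of the 6 libraries and with limma voom (highest adjusted p = 0.0777). The gene that rose in R2 was Ccl3 too, and this call ended with each of the 6 libraries left out in turn, with the replicate block (adjusted p = 0.0539) and with no filter (adjusted p = 0.101). The rise of the chemokine gene Ccl4 in R1 ended with 5 of 6 libraries left out and under 2 other settings (highest adjusted p = 0.133). The gene that fell in R3 was Mmp9, a matrix metalloproteinase, and its call ended with 4 of 6 libraries left out and under 3 other settings (highest adjusted p = 0.294). Ccl2, a monocyte chemoattractant, moved the other way, with 17.1 ± 3.72 CPM in CAWS R1 against 36.5 ± 0.92 CPM in naive R1 (-1.10 ± 0.22, edgeR adjusted p = 0.00227).

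Genes were ranked by how closely their log2 CPM, centred on their mean, followed that of Saa3 over the 21 libraries, as the root mean square difference among 12011 genes. The median gene differed by 3.12 and the closest 8 by 1.46 to 2.17, with the ninth at 2.18. Closest was Acod1 (1.46), which encodes the enzyme that makes itaconate in activated macrophages. It measured 2.42, 5.28 and 4.01 CPM in CAWS R1 against 0.346, 0 and 0 CPM in naive R1, and 5.23, 6.72 and 9.76 CPM in CAWS R2 against 0.0904, 0 and 0 CPM in naive R2. Unlike Saa3, its mean was higher in CAWS R2 than in CAWS R1, a contrast that it did not pass (log2 difference 0.91 ± 0.34, edgeR adjusted p = 0.167).

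The next were Cxcl3 (1.91), a neutrophil chemoattractant, Slc6a12 (2.01), a betaine transporter, and Il2rb (2.01), a subunit of the interleukin-2 receptor. After these came Cfb (2.08), Slc7a11 (2.11), the cystine transporter, Ikbke (2.11), an NF-kB pathway kinase, and Gzma (2.17), a granzyme and 1 of the T and NK cell markers above. These 8 were picked for following Saa3 over the same libraries, so their p-values between CAWS populations are not independent of that pick. Il2rb lay below CAWS R1 in CAWS R2 and CAWS R3, with log2 differences of -2.51 and -3.33 (edgeR adjusted p = 0.00361 and 0.000142), as did Gzma, with -4.41 and -2.81 (adjusted p = 0.0019 and 0.00296). The first ended with DESeq2 for Il2rb (adjusted p = 0.0993), and the second without CAWS R1 replicate 2 for Gzma (adjusted p = 0.0538). Cxcl3 was lower in CAWS R3 than in CAWS R1 (-2.14, edgeR adjusted p = 0.0123), a call that ended without 2 of 6 libraries, and did not pass in CAWS R2 (0.57, adjusted p = 0.615). With a prior count of 0.5 in place of 2, 5 of these 8 were again among the closest 8, and over the 7 group means 7 were.

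**Figure D4:**
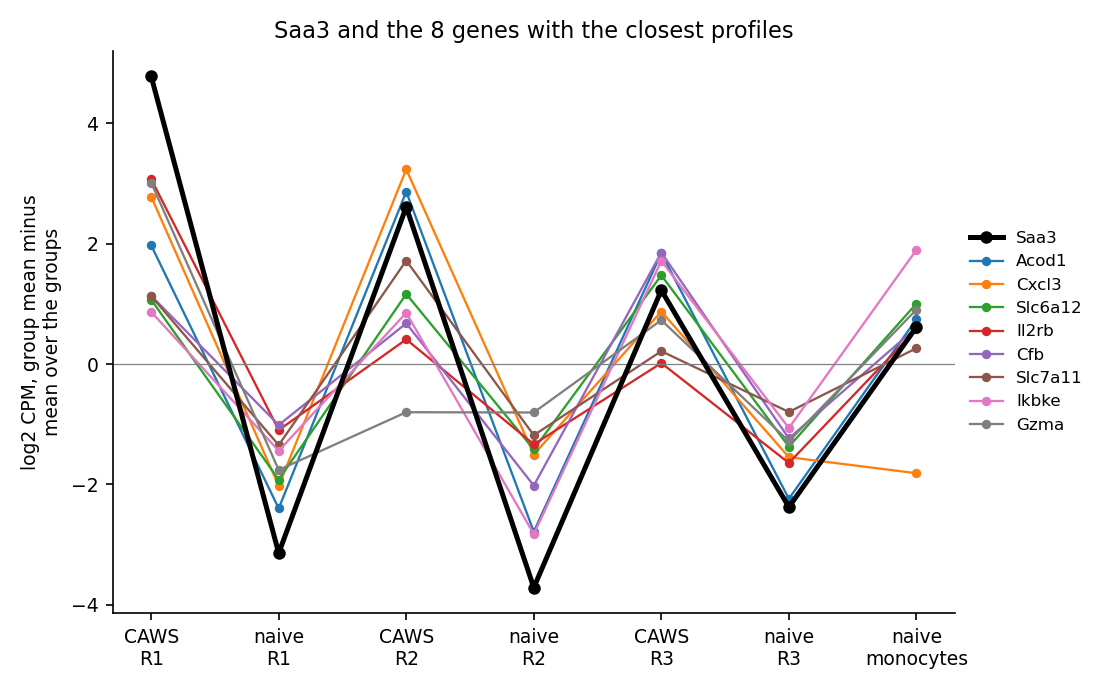
Group means of log2 CPM, each gene centred on its mean over the groups, for Saa3 (thick black line) and the 8 genes closest to it; lines only join the points of 1 gene. Saa3 spans from -3.72 in naive R2 to 4.78 in CAWS R1, and Gzma in CAWS R2 and Cxcl3 in monocytes fall away from it.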

How the data were processed

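RNA was sequenced from 21 libraries of sorted mouse cells (TruSeq kit, by the labels' protocols). The deposited values were raw counts of reads per gene made by the authors, and the submitters' processing notes name featureCounts and mm10; for the aligner, annotation release and strand setting, sources used here give nothing. Per-sample and combined tables held the same counts in 21 of 21 libraries. Symbols came from RefSeq (GRCm38.p6), which matched 25275 of 27179 IDs.

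The members and lists were chosen with earlier results of these data known. Genes with enough counts (filterByExpr, minimum 10 and total 15), 13275 in all, were fitted in 1 model of 7 group means (14 residual degrees of freedom) with edgeR 4.0.16 in R 4.3.3: TMM factors (0.9093 to 1.065), quasi-likelihood test, two-sided, Benjamini-Hochberg threshold 0.05, tested on simulated data. CPM uses TMM-adjusted library sizes. The SE of an edgeR log2 fold change is its absolute size divided by the square root of the quasi-likelihood F. It is not the model's own error of the coefficient and is rough where a group is near 0 counts, as for Saa3 in naive macrophages. Counting intervals (95%, exact) and the floor of 3 counts per group cover counting error only. Libraries of a group differed beyond sampling noise (chi-square per degree of freedom 10.2 to 136). Counts limit precision mainly in naive cells.

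From each list the 4 genes with the smallest p among those past the test, and those whose CAWS effect differed between populations, were eligible to be named, with the 8 closest profiles. Genes near Saa3 were also eligible. Hp, Tlr4, Clec7a, Ccr2, Ly6c2, Csf3r, Retnlg, Il1a, Il1b, Tnf, Il6, Cebpb, Cebpd, S100a8 and Lcn2, and Osm and Il18 in a plot, were added after their values were seen. Alternatives were other size factors (edgeR RLE, total counts), DESeq2 1.42.0, limma 3.58.1 voom with sample weights, no filter, a stricter filter (50 counts in 3 libraries), only the groups compared, a replicate block, and each library left out.

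The series design says each pool was divided into populations. Over 7064 genes whose mean log2 CPM was 4 or more, same-numbered libraries of 1 treatment deviated together (18 of 18 correlations over 0.1, from 0.15 to 0.64; 6 of 18 over all genes, after which the floor was set), and across treatments 1 of 9 did. Those 18 were pairs of macrophage libraries. Naive R2 or R3 and monocyte libraries of the same number, compared likewise, exceeded 0.1 in 4 of 6 cases, from -0.09 to 0.37. Numbers were read as pools among the macrophage libraries of a treatment only, and the replicate block left monocytes unpaired.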

Additional observations from a re-analysis of the deposited data

Results flagged for a closer look

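In the lists around Saa3, the CAWS effect differed between populations for 6 genes, by edgeR's test of the difference itself, with p adjusted over all 13275 genes. Of all genes, 2.26% passed for R3 minus R1 and 2.33% for R3 minus R2. The 6 were named because they passed, so their number cannot be set against those shares, and whether there was an excess was not tested. Values are differences of log2 fold changes with SE, R3 minus the other population.

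Cd36, the scavenger receptor, had a CAWS effect lower in R3 than in R1 by -1.61 ± 0.17 (adjusted p = 7.4e-06) and than in R2 by -1.51 ± 0.17 (adjusted p = 2.6e-05). Ceruloplasmin (Cp) differed by -1.51 ± 0.28 from R1 (adjusted p = 0.00312) and by -1.54 ± 0.28 from R2 (adjusted p = 0.00273). Il1rn differed by -1.52 ± 0.25 from R2 (adjusted p = 0.001), where its rise was larger. Clec4e differed by -2.41 ± 0.45 from R2 (adjusted p = 0.0029), with low naive R2 values of 0.573 to 1.36 CPM. Clec4n went the other way, by 0.80 ± 0.21 from R1 (adjusted p = 0.041). Socs3 differed by -0.84 ± 0.22 from R2 (adjusted p = 0.0423). These differences were fitted once and not under the alternatives. No cause was tested.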

How the results depend on the processing

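The direction of Saa3 was the same in each of its 9 contrasts under every alternative that gave a value, and naive R3 against naive R2 gave none with only the groups compared. CAWS R2 against CAWS R1 did not pass with DESeq2 (-2.21, adjusted p = 0.369), CAWS R3 against CAWS R2 passed with limma voom (-1.63, adjusted p = 0.0174), and naive R3 against monocytes did not (-3.58, adjusted p = 0.093); the cause was not tested. The replicate block, with numbers paired among the macrophages of a treatment, moved the CAWS effect on Saa3 to 9.80 in R1 and 9.34 in R2. It changed no call of Saa3. With each library left out in turn, the log2 values of Saa3 ran from 7.89 to 10.6 (CAWS against naive R1), 7.2 to 10.7 (R2), 2.59 to 5.76 (R3), -2.41 to -2.02 (CAWS R2 against R1), -4.31 to -2.61 (CAWS R3 against R1), -2.11 to -0.41 (CAWS R3 against R2), 1.14 to 5.99 (naive R3 against R2), -8.95 to -5.18 (naive R2 against monocytes) and -4.90 to -2.10 (naive R3 against monocytes).

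Counts of all genes past the test, in the same order, were 673 to 894, 726 to 1022, 973 to 1887, 227 to 458, 2823 to 3736, 1236 to 1912, 1060 to 1620, 7766 to 8153 and 7263 to 7626 with a library left out, against 1187, 1365, 1991, 501, 3908, 2027, 1646, 8440 and 7825 with all. With only the groups compared they were 2784 for CAWS against naive R2 and 794 for CAWS R2 against R1. With limma voom they were 2808 for CAWS against naive R2, 3283 for CAWS against naive R3, 790 for CAWS R2 against R1 and 3939 for CAWS R3 against R2. For the other named genes, the alternatives ended 166 calls, added 92, reversed 0 and left 2993 on the same side. Depth limits Saa3 in naive macrophages, at 8, 3 and 23 counts per group in R1, R2 and R3.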
